A study of Saccharomyces cerevisiae with 2 samples.

Results

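Ribonucleotide reductase is the enzyme that turns ribonucleotides into the deoxyribonucleotides (dNTPs) that DNA is built from. The 10 yeast genes described here encode its subunits, the small proteins that restrain it and the factors that set its transcription. They were chosen by name as RNR1, RNR3, RNR2, RNR4, SML1, DIF1, HUG1, DUN1, RFX1 and PLM2, and all 10 were found among the 6142 named rows of the deposited table. RNA was sequenced from 2 cultures of BY4741, a haploid laboratory strain of Saccharomyces cerevisiae of mating type a. Both grew in rich medium with glucose, were taken in mid-log phase and carry the same genotype. 1 culture was untreated and the other was kept in 2.5 mM paraquat for 8 h. Paraquat takes electrons inside the cell and passes them to oxygen, which gives superoxide. The labels state no time for the untreated culture, so paraquat and time in culture cannot be told apart.

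The yeast enzyme pairs a large subunit, Rnr1 or its damage-inducible relative Rnr3, with a small subunit made of Rnr2 and Rnr4. The large subunit binds substrate and the regulatory nucleotides. Rnr2 carries an iron centre and the tyrosyl radical that starts each round of catalysis, whereas Rnr4 lacks the iron ligands and is needed for Rnr2 to fold and take up its cofactor. Cells restrain the enzyme when little dNTP is needed: Sml1 binds the large subunit, Hug1 binds the small subunit, and Dif1 carries Rnr2 and Rnr4 into the nucleus, away from the large subunit in the cytoplasm. After DNA damage or stalled replication the kinases Mec1, Rad53 and Dun1 act in series, mark Sml1 and Dif1 for destruction and release the repressor Rfx1 from RNR2, RNR3, RNR4 and HUG1. Dun1 is also known to bring down Sml1 and Dif1 in yeast starved of iron.

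The sequences through which Rfx1 and the G1/S factor MBF act are shown first, because they separate the subunit genes into groups. Rfx1 binds the X-box, an inverted repeat written here as GTTGCCATGGCAAC. The 600 bases before each start codon were searched in the RefSeq R64 genome with up to 3 mismatches, and the motif reads the same on both strands. A match stood before RNR2, RNR3, RNR4, HUG1 and RFX1, which is 5 of the 10 members, and before 126 of 6013 protein-coding genes in all (2.10%). RNR3 had 2 matches and was 1 of 2 genes among the 6013 with that many. The other members had no such letters in this window, which says nothing more about Rfx1. Capitals mark the 14 bases compared with the motif.
RNR2, 441 to 428 bases before the start codon: cgcgcgATCGCCATGGCAACgaggtc
RNR3, 381 to 368 bases before: cctacgGTTGTCACAGCAACattgcg
RNR3, 271 to 258 bases before: aacccgGTTGCCATGGCGAGgaccaa
RNR4, 394 to 381 bases before: atgggcGTTGTTGTGGCAACaccatc
HUG1, 197 to 184 bases before: tatctcGTTTCCACAGCAACgagaaa
RFX1, 47 to 34 bases before: tttcgtGTTGTCATGGCGATttggga
The RNR2 site and the second RNR3 site differed from the motif at 2 bases and the other sites at 3.

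MBF, which switches on genes of DNA synthesis late in G1, recognises the MCB element, ACGCGT. RNR1 had 4 exact copies in its 600 bases, RNR3 had 2 and DUN1 had 1, and no copy stood before the other members. At least 1 copy stood before 6.32% of the 6013 genes and at least 2 copies before 40 genes (0.665%). The element reads the same on both strands and shares no stretch with the X-box matches above. Capitals mark it in the RNR1 windows.
RNR1, 492 to 487 bases before the start codon: gcttgtttACGCGTtttatccc
RNR1, 442 to 437 bases before: aagaaaaaACGCGTaaacagtg
RNR1, 371 to 366 bases before: ctaagtaaACGCGTcattttga
RNR1, 306 to 301 bases before: aatagaggACGCGTaaaaacga
The main large subunit gene thus carried MCB elements and no X-box match, and the small subunit genes carried an X-box match and no MCB element. RNR3 carried both.

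The values below are normalized reads, that is, read counts per gene after division by the size factor of the library. The libraries held 164909400 untreated and 165264107 paraquat reads on named genes. With 1 library in each group, none of the differences below has a replicate check, and a fold that exceeds its interval exceeds counting error only. Intervals on folds are 95% exact binomial intervals of how a gene's reads divide between the libraries. The size factors place the median gene at a log2 change of -0.0029. Scaling to total reads on named genes in place of the deposited scaling would move every log2 change up by 0.26. As a check of the strain, the a-cell receptor gene STE2 held 105963 and 84794 normalized reads in the untreated and paraquat libraries, and the alpha-cell receptor gene STE3 held 719 and 1175. The 5 a-cell markers summed to 306194 and 223689 normalized reads, and the 4 alpha-cell markers to 6581 and 7883. BAR1, which encodes a protease that degrades alpha factor, was the a-cell marker past 2-fold, at 2.17-fold lower (2.14 to 2.21), and STE6, the a-factor exporter gene, stood nearest to 0 among them, at -0.11 on the log2 scale. The alpha-cell agglutinin gene SAG1 held 4742 and 5205 normalized reads. Of the deletion markers of BY4741, LEU2, MET17 and URA3 were not found by these names among the named rows. HIS3 held 17852 and 12482 normalized reads, although the labelled strain is known to carry a deletion within this gene. What part of HIS3 these reads cover was not tested.

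After paraquat the main large subunit transcript was higher and both small subunit transcripts were lower. RNR1 was 1.82-fold higher, while RNR2 was 1.56-fold and RNR4 1.41-fold lower. SML1, which encodes the inhibitor of the large subunit, was 1.44-fold lower, and PLM2 was 2.08-fold higher. The damage-inducible transcripts RNR3 and HUG1 were 1.10-fold and 1.06-fold their untreated levels. At least 2-fold higher was reached by 1 of the 10 members, PLM2, beside 3.08% of the 5973 genes whose mean was 50 normalized reads or more. At least 2-fold lower was reached by 0 of the 10, beside 1.52% of these genes. At 1.5-fold, RNR1 and PLM2 were higher (2 of 10, beside 7.75%) and RNR2 was lower (1 of 10, beside 5.88%). Scaled to total reads, RNR1 also passed 2-fold, at 2.18-fold higher (2 of 10, beside 5.22%), and 0 of 10 were at least 2-fold lower (beside 0.737%). All 10 members passed the minimum mean.

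**Figure D1:**
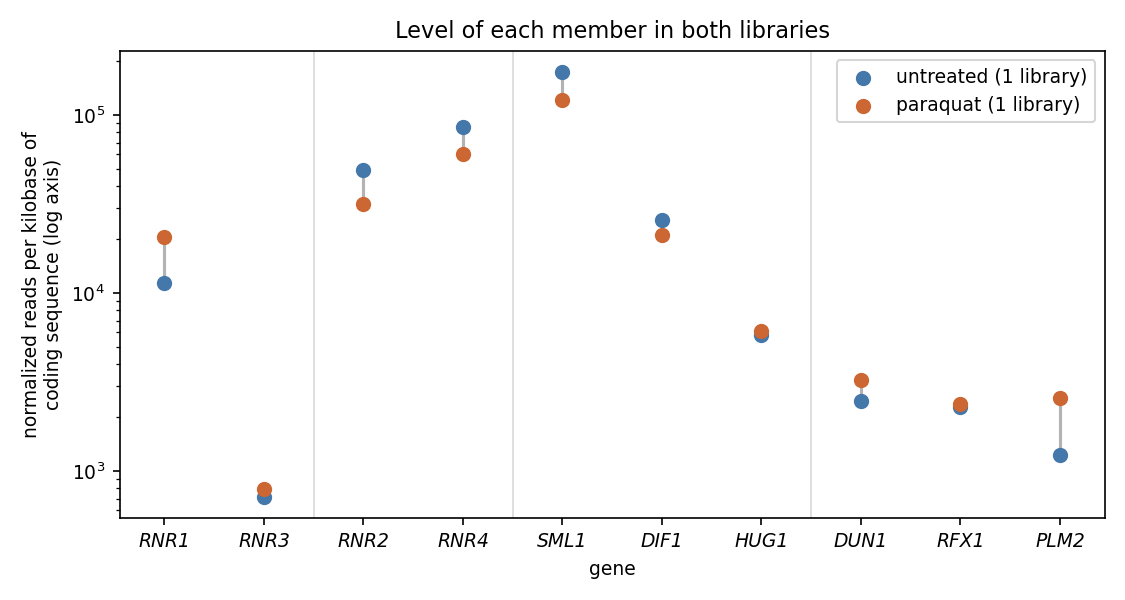
Normalized reads per kilobase of coding sequence (log axis) for the 10 members in the untreated and the paraquat library, 1 point per library, with a grey line joining both. SML1 is highest and RNR3 lowest in both libraries, RNR1 and PLM2 are higher and RNR2, RNR4 and SML1 lower after paraquat.

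The large subunit genes differed from each other in level and in change. RNR1 (YER070W, chromosome V) held 30162 normalized reads without treatment and 54896 after paraquat, from 27543 and 60116 reads. The ratio was 1.82 (1.79 to 1.85), a log2 change of 0.86, and 3.97% of the 5973 genes had a higher one. RNR3 (YIL066C, chromosome IX), which is known for strong induction by DNA damage, held 1873 and 2054 normalized reads, a ratio of 1.10 (1.03 to 1.17). Genes of the same class of mean expression, of 10 classes, had a median log2 change of 0.18, above the 0.13 of RNR3. Per kilobase of coding sequence, the level of RNR1 was 15.8 times that of RNR3 in the untreated and 26.2 times in the paraquat library. RNR3 thus made up 5.97% and 3.68% of the summed large subunit level per kilobase.

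RNR1 and RNR3 are related in sequence, which could in principle mix their reads. Their coding sequences agreed at 77.1% of 2607 aligned bases in the R64 reference, and the longest identical run was 38 bases. Of all stretches of 50 bases in either coding sequence, 0% occurred a second time in the genome. The same was found for each of the 10 members, and none overlapped another gene of that annotation. The read length is not given in the sources used here.

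Both small subunit transcripts were abundant and both were lower after paraquat. RNR2 (YJL026W, chromosome X) held 59109 normalized reads without treatment and 37953 after paraquat, 1.56-fold lower (1.54 to 1.58), and 5.09% of the 5973 genes had a lower log2 change than its -0.64. RNR4 (YGR180C, chromosome VII) held 88818 and 62952, 1.41-fold lower (1.397 to 1.43), with a log2 change of -0.50. The changes of this pair were close, and RNR2 was lower than RNR4 by 0.14 on the log2 scale (0.12 to 0.17). Highly expressed genes were lower in general. The class of RNR2 and RNR4, the highest of 10, had a median log2 change of -0.31, and relative to it RNR2 stood at -0.33 and RNR4 at -0.19. Scaled to total reads the log2 changes were -0.38 for RNR2 and -0.24 for RNR4.

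**Figure D2:**
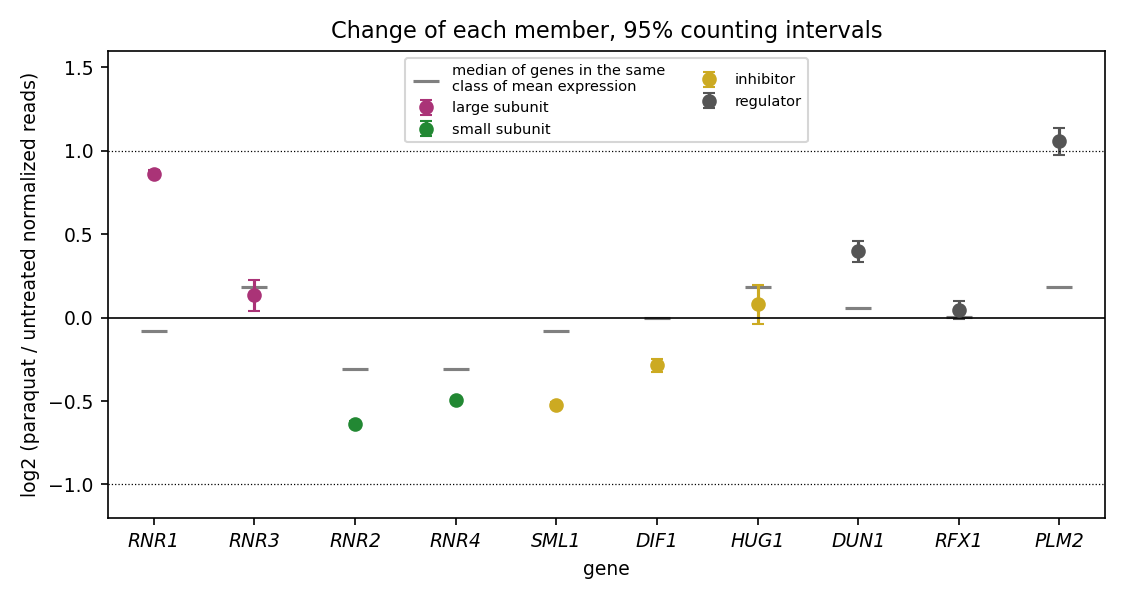
The log2 ratio of paraquat to untreated normalized reads for each member, with 95% counting intervals, coloured by role. Grey bars give the median of genes in the same class of mean expression and dotted lines mark 2-fold. RNR1 stands at 0.86 and PLM2 at 1.06, while RNR2, RNR4 and SML1 stand between -0.64 and -0.50.

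The balance between subunit transcripts can be read within each library, where the scaling between libraries has no part. Per kilobase of coding sequence, the ratio of RNR2 to RNR1 was 4.36 before and 1.54 after paraquat, a 2.83-fold difference. The ratio of RNR4 to RNR1 was 7.57 and 2.95. Summed, small over large subunit transcripts stood at 11.2 and 4.32, a 2.60-fold difference. The ratio of RNR4 to RNR2 was 1.74 and 1.92, so the proportion within the small subunit pair differed by 1.10-fold. The mean log2 change of the small subunits was 1.07 below that of the large subunits (difference -1.07, -1.11 to -1.02). RNR2 stood 1.503 below RNR1 (difference -1.503, -1.53 to -1.48) and 0.77 below RNR3 (difference -0.77, -0.86 to -0.68). These differences do not allow for mean expression. Relative to the median of their class of mean expression, RNR2 stood at -0.33, RNR4 at -0.19, RNR1 at 0.94 and RNR3 at -0.05. The small and large subunits stood closer together on that scale.

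**Figure D3:**
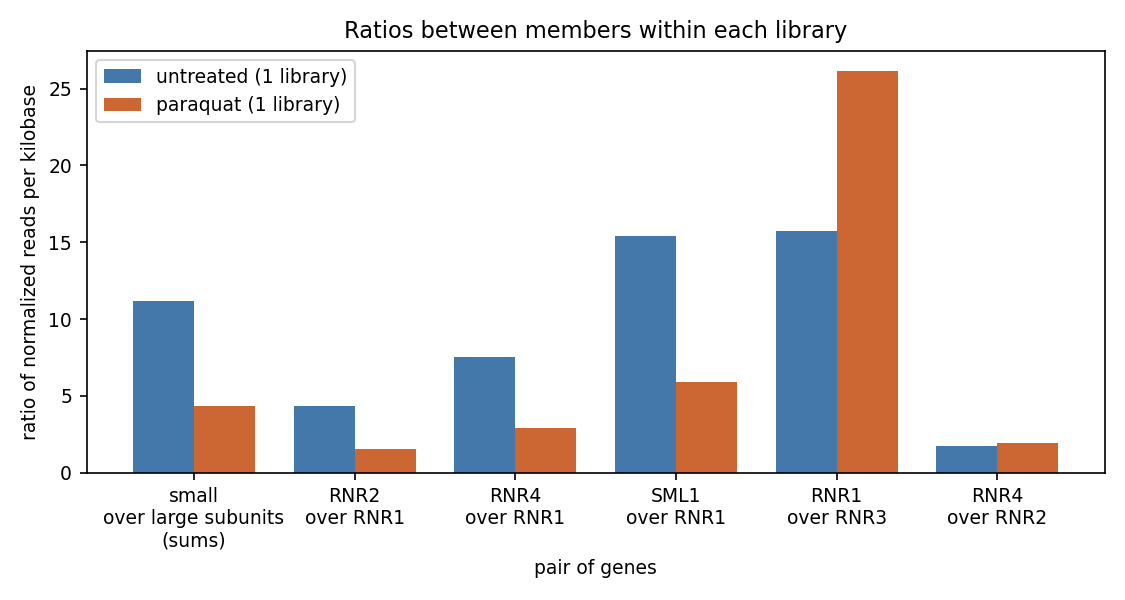
Ratios of normalized reads per kilobase of coding sequence between members within the untreated and the paraquat library. Small over large subunits is 11.2 and 4.32, SML1 over RNR1 is 15.4 and 5.89, and RNR4 over RNR2 is 1.74 and 1.92.

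Of the 3 genes for small restraining proteins, SML1 and DIF1 were lower and HUG1 lay within counting error. SML1 (YML058W, chromosome XIII) held 54921 and 38210 normalized reads, 1.44-fold lower (1.42 to 1.46), with a log2 change of -0.52. Genes of its class of mean expression had a median of -0.08. SML1 was the highest member per kilobase in both libraries, at 174352 and 121301, although coding length leaves out untranslated ends and so raises the value of short genes. The ratio of SML1 to RNR1 per kilobase was 15.4 without and 5.89 with paraquat, so the inhibitor transcript was less abundant relative to its target by a factor of 2.62.

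DIF1 (YLR437C, chromosome XII) held 10349 and 8484 normalized reads, 1.22-fold lower (1.19 to 1.26). Its log2 change of -0.29 became -0.03 when scaled to total reads. HUG1 (YML058W-A, chromosome XIII), which lies next to SML1 on the same strand, held 1195 and 1263 normalized reads. Its ratio of 1.06 had an interval that included 1 (0.976 to 1.15), so a difference was not detectable at this depth. HUG1 transcripts are known to climb steeply after DNA damage. Per kilobase, HUG1 was 11.7% of RNR2 without and 19.3% with paraquat.

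The regulator genes stood at or above their untreated levels. DUN1 (YDL101C, chromosome IV), the checkpoint kinase that acts on Sml1, Dif1 and Rfx1, held 3815 and 5027 normalized reads, 1.32-fold higher (1.26 to 1.38). RFX1 (YLR176C, chromosome XII), the repressor, held 5576 and 5755, a ratio of 1.03 whose interval included 1 (0.994 to 1.07). PLM2 (YDR501W, chromosome IV), a putative transcription factor with a forkhead-associated domain, held 1934 and 4025, 2.08-fold higher (1.97 to 2.20). The interval of PLM2 reached below 2-fold, and 2.70% of the 5973 genes had a higher log2 change than its 1.06. The class of mean expression of PLM2 had a median log2 change of 0.18. Relative to that median PLM2 stood at 0.88, which is within 2-fold. TOS4, the paralog of PLM2, held 6038 and 8013 normalized reads and was 1.33-fold higher (1.28 to 1.37). The mean log2 change of the small subunits was below that of the 6 inhibitor and regulator genes by 0.70 (difference -0.70, -0.73 to -0.67). These 6 ran from -0.52 for SML1, below the -0.50 of RNR4, to 1.06 for PLM2. The difference does not allow for mean expression. Relative to the median of their class, RNR2 stood at -0.33 and RNR4 at -0.19. On that scale SML1 stood at -0.44, DIF1 at -0.29, HUG1 at -0.10, RFX1 at 0.04, DUN1 at 0.34 and PLM2 at 0.88.

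In order of level per kilobase, the untreated library ran SML1, RNR4, RNR2, DIF1, RNR1, HUG1, DUN1, RFX1, PLM2 and RNR3, from 174352 down to 717. In the paraquat library the order was the same except that PLM2, at 2570, stood above RFX1, at 2362. RNR1 came close to DIF1, with 20583 against 21105. With 1 library per group, whether neighbours in this order differ beyond the spread between cultures is not known. Over all 10 members the median log2 change was 0.06, with 6 above 0 and 4 below, beside 49.7% above and 50.3% below among the 5973 genes. The authors' deposited table gives no member an unadjusted p under 0.05 in its test of 1 library against 1. In the authors' deposited table the unadjusted p ran from 0.0711 for PLM2 and 0.0911 for RNR1 to 0.894 for RFX1, and the adjusted p was 0.999 for each. An adjusted p under 0.05 was reached by 0 of 6142 rows (0%), and an unadjusted p under 0.05 by 130.

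Seen beside the sequences above, the 5 members with an X-box match did not share a direction. Their log2 changes were -0.64 for RNR2, -0.50 for RNR4, 0.05 for RFX1, 0.08 for HUG1 and 0.13 for RNR3. All 114 measured genes with such a match had a median of -0.02, and 56 of them lay above 0. Over the 5520 genes without one the median was -0.01, and 2694 lay above 0. Among the 38 measured genes with at least 2 MCB elements, 31 lay above 0 and the median was 0.17, and RNR1, with 4 elements, had the highest change, at 0.86. None of the 38 was at least 2-fold higher or lower, beside 3.08% and 1.52% of the 5973 genes. The 5272 genes without an MCB element had a median of -0.01, and 2550 of them lay above 0. These are descriptions of windows of fixed length, with no test.

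The checkpoint list, which holds the kinases and sensors above Dun1, leaned slightly upward. Of 16 genes 14 lay above 0, beside 49.7% of the 5973 genes, and the median log2 change was 0.17. None of the 16 was at least 2-fold higher or lower, beside 3.08% and 1.52% of the 5973. RAD53, the kinase that activates Dun1, was highest at 0.40, from 2775 to 3665 normalized reads. MEC1, the kinase at the top of the pathway, stood at 0.18, and DDC1, a clamp subunit that loads at damaged DNA, was lowest at -0.10. Phosphatases that switch this pathway off had a median of -0.15 over 5 genes, with PPH3 highest at 0.40 and PTC2 lowest at -0.50. The sign of the phosphatase median turned with scaling to total reads (0.10).

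Among 11 other factors that act on RNR promoters, 4 lay above 0, beside 49.7% of the 5973 genes. The median log2 change of the list was -0.12 (0.13 when scaled to total reads). ROX1, the hypoxic gene repressor that is known to act on RNR genes too, was the 1 member at least 2-fold higher, from 15659 to 32465 normalized reads (2.07-fold, 2.03 to 2.11). Over the 5973 genes, 3.08% were at least 2-fold higher. MOT3, which represses with Rox1, was lowest at -0.44. TUP1 and CYC8, the corepressor pair that Rfx1 recruits, stood at -0.27 and -0.34. IXR1, a DNA-binding protein needed for normal RNR1 expression, stood at -0.34, and CRT10, a negative regulator of RNR2 and RNR3, at -0.12. MBP1 and SWI6, the subunits of MBF, stood at 0.12 and -0.06.

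The list of nuclear retention and Sml1 turnover genes had no gene at least 2-fold higher or lower among 6. Over the 5973 genes these shares were 3.08% and 1.52%. The median log2 change of the list was 0.11. WTM1, which anchors Rnr2 and Rnr4 in the nucleus, was 1.26-fold lower (1.24 to 1.27), from 89001 to 70787 normalized reads. WTM2, its paralog, stood at -0.17 and KAP122, an importin for the small subunit, at 0.14. UBR2, a ubiquitin ligase for Sml1, was highest at 0.44, and its partners RAD6 and MUB1 stood at 0.07 and 0.14.

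Genes of cofactor assembly and iron control had a median log2 change of 0.17 over the 9 of 10 genes that were found. TIS11, also called Cth2, was the 1 gene at least 2-fold higher, from 5279 to 43492 normalized reads (8.24-fold, 8.00 to 8.49). Of the 5973 genes, 3.08% were at least 2-fold higher. Cth2 speeds the decay of transcripts with AU-rich elements when iron is scarce, and WTM1 is among its known targets. The iron sensor genes AFT1 and AFT2 stood at 0.58 and 0.40. GRX3, a glutaredoxin that with Dre2 helps deliver iron to Rnr2, was lowest at -0.56, while its paralog GRX4 stood at 0.17, DRE2 at 0.13 and TAH18, the electron donor of Dre2, at 0.17.

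The 300 bases after each stop codon were searched for the core of its AU-rich element, TATTTAT, on the coding strand. This search was chosen after the values were seen. RNR4 had 3 copies, WTM1 had 2, and RNR1, RNR2, DIF1, DUN1 and TIS11 itself had 1 each. At least 1 copy stood after 17.1% of 6013 genes. The 973 measured genes with a copy had a median log2 change of -0.05, beside -0.00065 over 4661 without. Capitals mark the element in sites of both small subunit genes, the main large subunit gene and WTM1.
RNR2, 69 to 75 bases after the stop codon: gcacctctTATTTATatatatat
RNR4, 40 to 46 bases after: gccactttTATTTATatatattt
RNR1, 30 to 36 bases after: ttcaattcTATTTATcaaaattt
WTM1, 31 to 37 bases after: caaggccaTATTTATatatttaa
RNR1, DUN1 and TIS11, which were higher, held the element, as did RNR2, RNR4, DIF1 and WTM1, which were lower. Whether Cth2 acted on any of these transcripts was not tested.

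Transcripts for the proteins that hand electrons to ribonucleotide reductase differed widely in their change. TRX2, a thioredoxin, was 2.48-fold higher (2.45 to 2.50) and TRR1, the thioredoxin reductase, 2.06-fold higher (2.05 to 2.08). TRX1, the other cytosolic thioredoxin, was 2.48-fold lower (2.44 to 2.52), from 54754 to 22092 normalized reads. The glutaredoxin genes GRX1 and GRX2 stood at -0.35 and 0.54 and the glutathione reductase gene GLR1 at -0.06. GRX2 overlaps EMI1 in the annotation, so its reads are uncertain. TRX2 and TRR1 were thus the 2 of these 6 genes past 2-fold upward, beside 3.08% of the 5973 genes. TRX1 was the 1 downward, beside 1.52%.

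The rest of dNTP supply leaned downward, with 12 of 14 genes below 0, beside 50.3% of the 5973 genes. The median log2 change of the list was -0.22, which became 0.040 when scaled to total reads. URA6, a uridylate kinase, was lowest at -0.88, from 20787 to 11317 normalized reads, and URA8, a CTP synthase, stood at -0.77. DFR1, dihydrofolate reductase, stood at -0.50 and YNK1, the nucleoside diphosphate kinase, at -0.49. CDC21, thymidylate synthase, was highest at 0.15, and it carries 2 MCB elements. None of the 14 was at least 2-fold lower or higher, beside 1.52% and 3.08% of the 5973 genes.

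**Figure D4:**
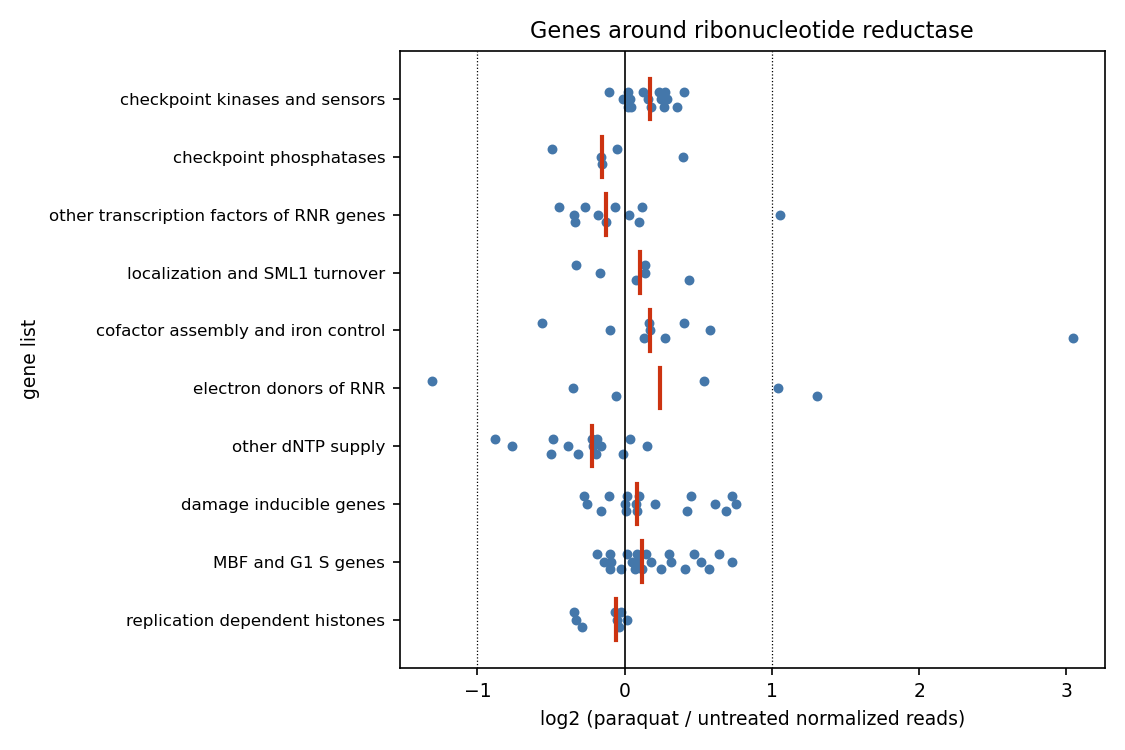
The log2 ratio of paraquat to untreated normalized reads for each gene of 10 lists around ribonucleotide reductase, 1 point per gene, with the list median in red and dotted lines at 2-fold. TIS11 at 3.04 stands apart among the iron genes, the electron donors spread from -1.31 to 1.31, and most other genes lie within 2-fold.

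Damage-inducible genes and genes of S phase entry were within 2-fold. Of 17 measured damage-inducible genes 13 lay above 0, beside 49.7% of the 5973 genes, with a median log2 change of 0.08. In DDI2 and DDI3, at 0.61 and 0.69, 92.1% of stretches of 50 bases occur more than once in the genome. Their reads are uncertain, and they may not be separate measurements. In DDR48 and UBI4, at 0.10 and 0.20, these shares were 32.5% and 18.2%. TSA1, a peroxiredoxin gene, was highest at 0.76, then DIN7, a nuclease gene, at 0.73, while RAD7, a nucleotide excision repair gene, was lowest at -0.27. The recombination gene RAD54 stood at 0.45, and the DNA repair genes MAG1 and PHR1 at -0.11 and -0.26. Of 23 MBF and G1/S genes 17 lay above 0, beside the same 49.7%, with a median of 0.12. They ran from RFA1 at -0.19 to the S phase cyclin gene CLB6 at 0.73, which is below RNR1. Replication-dependent histone genes had a median of -0.06 over 8, from HHT1 at -0.35 to HHF2 at 0.02, and 0.20 when scaled to total reads. All 8 belong to the highest class of mean expression, whose median log2 change was -0.31. Parts of HHT1 and HHF2 occur a second time in the genome, so their reads are uncertain. RNR1 transcripts peak at the G1/S transition, and in a bulk culture more cells in that stage and more RNA per cell cannot be told apart.

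Among 115 genes of these lists, the nearest in log2 change to RNR1 was TSA1 (0.76 against 0.86). The nearest to RNR2 was GRX3 (-0.56 against -0.64), to RNR3 it was DRE2 (0.13 for both), and to RNR4 it was PTC2 (-0.50 for both). This likeness rests on 2 libraries, which is 1 value per gene.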

How the data were processed

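The authors deposited 1 table that gives, for every gene, a normalized signal in 2 libraries, 1 untreated and 1 treated with paraquat. From the values, each signal is a whole read count, within 0.01 read, times 1 step per library (1.10 untreated, 0.913 paraquat), so counts were recovered, without a count test because each group has 1 library. The deposited log2 column equals the log2 ratio of both signals, and the deposited p-value columns are, per the file headers, the authors' own. Tools listed without roles in the submitters' processing notes are STAR 2.5.2b, Subread 1.5.2, featureCounts, DESeq2 and Trimmomatic 0.36. The genome build used is not given in the sources used here. A total of 1 unnamed row (0.00449% of untreated and 0.00675% of paraquat reads) was left out.

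Folds are ratios of signals, with Clopper-Pearson intervals of the read split. Intervals of differences between log2 changes use the normal approximation to Poisson counts. All intervals cover counting error only, and PCR copies are not independent molecules. A gene was counted as higher or lower past 2-fold where its mean was 50 normalized reads or more, with no test. Named genes are all 10 members and, from each pathway list, the extremes, every gene past 2-fold and genes fixed by role. Others (AFT1, AFT2, DRE2, GRX4, TAH18, RAD6, MUB1, UBR2, MBP1, SWI6, URA8, DFR1, YNK1, DIN7, DDI2, DDI3, DDR48, UBI4, RAD54, MAG1, PHR1 and the mating type and deletion markers) were named after their values were seen. The members and lists were chosen with earlier results of these data known.

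RefSeq R64 sequences were matched by symbol (10 of 10 members) and give no coordinates here. Protein sequences were not used here, and nucleotide identity was compared instead. Lengths are coding lengths. Python 3.11.15, numpy 2.4.6, pandas 2.3.3, scipy 1.17.1, Biopython 1.88 and matplotlib 3.10.9 were used. The fold procedure was run on simulated Poisson counts without spread between cultures, so that run covers counting error only.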

Additional observations from a re-analysis of the deposited data

How the results depend on the processing

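With 1 library per group, no replicate could be left out, and the values describe these 2 libraries. No paired analysis was possible because each group has 1 library. The number of members past 2-fold was 1 (PLM2), and it was 3 at 1.5-fold and 2 (PLM2 and RNR1) when scaled to total reads. It did not move with centring on the median gene or with pseudocounts of 1 and 10, which hardly shift genes at these levels. Leaving out the minimum mean could not change it, because all 10 members passed that minimum. Relative to genes of the same class of mean expression, no member was past 2-fold, with RNR1 at 0.94 and PLM2 at 0.88. The small minus large subunit difference of -1.07 was -1.38 from summed reads and -1.503 for RNR2 against RNR1. The small subunit minus inhibitor and regulator difference of -0.70 was -0.63 with medians and -0.51 without PLM2, the last chosen after seeing the data. Relative to genes of the same class of mean expression, RNR3 turned to -0.048 and HUG1 to -0.10. Scaled to total reads, list medians turned to 0.10 for checkpoint phosphatases, 0.13 for other transcription factors, 0.040 for other dNTP supply and 0.20 for histones, since that scaling adds 0.26 to every gene. Of the other alternative values for single members, 15 moved beyond the member's counting interval without changing sign and 33 did not. Those that stayed came from centring and pseudocounts, which hardly shift genes at these levels, and from DIF1, DUN1 and RFX1 relative to their class. Scaling to total reads moved every member beyond its interval. For lists, set against the medians of their genes' interval bounds, 19 moved beyond without changing sign and 3 did not.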

Other observations

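Set beside its next gene on either side, a member had a change of the same sign in 7 and of the opposite sign in 11 of 18 measured pairs, where SML1 and HUG1, which adjoin, count from both sides. PLM2, with a log2 change of 1.06, lies between the ribosomal protein gene RPL37B, at -0.54, and the S-adenosylmethionine synthetase gene SAM2, at -0.96. SML1, at -0.52, lies between HUG1, at 0.08, and the calcineurin subunit gene CMP2, at -0.15. DUN1, at 0.40, lies between the DNA polymerase gene POL3, at 0.03, and GET3, at -0.58. Among pairs with the same sign, RNR1 at 0.86 lies beside TDA2 at 0.33, RNR3 at 0.13 beside YIL067C at 0.79, and DIF1 at -0.29 beside CAR2 at -1.01. These neighbours were named after their values were seen.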
